A study of Mus musculus with 3 samples.

Results

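The subject is 9 transcription factors that build and keep the hormone cells of the pancreatic islet: Pdx1, Nkx6-1, Nkx2-2, Neurod1, Isl1, Pax6, Foxa2, Rfx6 and Hhex. They were chosen by name, and all 9 were found among the 31053 genes of the deposited count table. Single islet cells were profiled by 10x 3′ RNA sequencing in 3 libraries, 1 per group. The recovered library came from mice whose S961 pumps had been taken out again, the S961 library from mice carrying pumps that delivered S961, and the control library from mice with pumps that held no S961. S961 is a peptide that blocks the insulin receptor, and the design text gives a dose of 20 nM per week over an infusion of 2 weeks. All mice were male C57Bl6/J retired breeders of 7 to 8 months from the Jackson Laboratory, and all islets were kept in culture overnight before dissociation with TrypLE. The labels give neither the length of the recovery nor the number of mice behind each library. With 1 library per group, each difference is one between libraries, no p-value was computed, and every interval covers counting error only.

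Islets hold beta cells, which secrete insulin, alpha cells, which secrete glucagon, delta cells, which secrete somatostatin, and pancreatic polypeptide cells. These cells descend from common endocrine progenitors, and a network of homeodomain, basic helix-loop-helix, forkhead and RFX proteins first directs their fate and later holds it in the adult. Pdx1 and Nkx6-1 are homeodomain factors that mature mouse beta cells need for insulin transcription and secretion, and Pdx1 is also used by delta cells. Nkx2-2, Neurod1, Isl1 and Pax6 act in several endocrine types, Foxa2 opens chromatin as a pioneer factor, Rfx6 is needed for endocrine differentiation and for mature beta-cell function, and Hhex maintains delta cells.

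The homeodomain members recognise sites built around TAAT, and Neurod1 binds with its partners to E-boxes of the form CANNTG. The 250 bases upstream of the annotated start are shown for Pdx1 and Rfx6, the factors that differed in opposite directions in beta cells, and for hormone genes that mark beta, alpha and delta cells. The sequences are those of RefSeq on build GRCm38.p6, read 5′ to 3′ on the strand of the gene, with TAAT or its reverse complement ATTA in capitals. The windows are Pdx1 on the plus strand at chr5:147269847-147270096, Rfx6 on the plus strand at chr10:51685268-51685517, Ins1 on the plus strand at chr19:52264047-52264296, Gcg on the minus strand at chr2:62483654-62483903 and Sst on the minus strand at chr16:23890845-23891094.
Pdx1: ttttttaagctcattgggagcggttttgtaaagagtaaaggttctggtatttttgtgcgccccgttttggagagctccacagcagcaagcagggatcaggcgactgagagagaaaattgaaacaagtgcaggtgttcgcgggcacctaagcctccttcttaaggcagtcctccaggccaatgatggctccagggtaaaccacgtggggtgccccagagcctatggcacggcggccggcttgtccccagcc
Rfx6: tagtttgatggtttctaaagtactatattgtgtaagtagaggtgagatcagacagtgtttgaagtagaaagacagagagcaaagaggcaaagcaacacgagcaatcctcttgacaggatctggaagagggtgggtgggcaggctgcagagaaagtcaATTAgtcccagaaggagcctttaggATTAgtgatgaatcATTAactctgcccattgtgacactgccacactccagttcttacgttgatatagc
Ins1: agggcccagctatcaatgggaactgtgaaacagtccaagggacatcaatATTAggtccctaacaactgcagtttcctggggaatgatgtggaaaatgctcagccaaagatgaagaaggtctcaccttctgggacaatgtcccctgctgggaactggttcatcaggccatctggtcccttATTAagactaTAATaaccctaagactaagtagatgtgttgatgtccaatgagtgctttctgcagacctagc
Gcg: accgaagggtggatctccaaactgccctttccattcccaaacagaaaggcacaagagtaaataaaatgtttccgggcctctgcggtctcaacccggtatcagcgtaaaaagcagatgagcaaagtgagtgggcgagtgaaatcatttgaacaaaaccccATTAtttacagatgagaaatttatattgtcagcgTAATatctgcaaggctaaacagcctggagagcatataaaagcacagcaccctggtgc
Sst: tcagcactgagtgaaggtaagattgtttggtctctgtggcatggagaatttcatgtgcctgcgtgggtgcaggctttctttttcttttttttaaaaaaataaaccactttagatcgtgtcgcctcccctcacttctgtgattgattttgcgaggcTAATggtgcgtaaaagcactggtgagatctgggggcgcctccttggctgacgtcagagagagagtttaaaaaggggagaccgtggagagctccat
The Rfx6 window held 3 matches to TAAT on either strand, at 93, 68 and 54 bases upstream of the start, and no CANNTG. The Pdx1 window held no TAAT and 3 matches to CANNTG. The Ins1 window held 3 TAAT matches and 2 CANNTG matches, the Gcg window 2 and 3, and the Sst window 1 of each. Such matches are common: of 32851 promoter windows of the same length, 54.9% held TAAT and 66.2% held CANNTG, while 17.3% held TAAT at least 3 times. All 9 factors were matched in the RefSeq table, in 12 windows, of which 7 held TAAT. Of the 5 hormone genes Ins1, Ins2, Gcg, Sst and Ppy, 4 were matched. CANNTG reads the same on both strands in this form, and no TAAT match overlapped a CANNTG match in the 5 windows shown. A match describes these letters only.

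In the GENCODE M21 annotation of GRCm38 (mm10), Pdx1 lies at chr5:147269959-147275848 on the plus strand with 2 exons, and Rfx6 at chr10:51677756-51730432 on the plus strand with up to 19 exons. The RefSeq starts used for the windows above therefore lie inside the GENCODE extent of both genes. Nkx6-1 lies at chr5:101658139-101664996 on the minus strand, Nkx2-2 at chr2:147177546-147194243 on the minus strand and Neurod1 at chr2:79452521-79456751 on the minus strand. Isl1 lies at chr13:116298281-116309689 on the minus strand, Pax6 at chr2:105668900-105697364 on the plus strand, Foxa2 at chr2:148042877-148046969 on the minus strand and Hhex at chr19:37434810-37440731 on the plus strand. Other annotated genes overlap 4 of the 9, and whether reads were counted by strand is not given in the sources used here. In beta-like cells, Pdx1 had 6636 UMIs beside 782 of the overlapping Plut, Neurod1 had 8816 beside 1343 of Cerkl, Nkx2-2 had 5123 beside 324 of 6430503K07Rik, and Pax6 had 15458 beside 605 of Pax6os1.

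The libraries held 40102058 UMIs (unique molecule counts) in recovered, 47651767 in S961 and 38265969 in control. After filtering, 3513 recovered, 3430 S961 and 4267 control cells remained, and the median cell held 8577, 9944 and 6501 UMIs. They came from 7805, 5905 and 10880 deposited barcodes, whose median mitochondrial shares were 23.1%, 5.82% and 26.4%. In the cells kept the medians were 6.13%, 4.24% and 6.16%. Each comparison with the S961 library is thus also one between libraries that differed in this share. An alternative setting kept only cells with 4 to 7% mitochondrial UMIs. Of the cell barcode sequences of the analysed cells, 13 of 11197 occurred in 2 libraries. Cells were clustered without the 9 factors and named by other markers. Beta-like cells numbered 2188 in recovered, 1610 in S961 and 2970 in control, alpha-like cells 221, 333 and 206, delta-like cells 181, 337 and 316, and Ppy-like cells 58, 131 and 95. Insulin transcripts made up 30.8 to 33.4% of the UMIs of beta-like cells, Gcg 22.2 to 23.1% of alpha-like, Sst 7.79 to 8.42% of delta-like and Ppy 25.5 to 27.9% of Ppy-like cells. The Ppy-like name rests on Ppy, the main hormone of these cells and the 1 marker of its set among their 10 leading genes. Of the other markers, Pyy and Id2 were present, Aqp3 and Vipr2 were at 0 in all 3 libraries and Sertm1 had at most 10 UMIs. Id2 was at 245, 138.5 and 86.4 CPM (UMIs in each 1000000 UMIs of the class) in Ppy-like cells and at 128, 111 and 158 CPM in delta-like cells, so in control it was higher in delta-like cells, and Pyy was at 70736, 80130 and 68242 CPM in delta-like cells beside 104453, 92247 and 98547 CPM in Ppy-like cells. Of the 12 beta markers, Adcyap1 was at 0 in beta-like cells. In beta-like cells the 8 alpha markers together were at 656 CPM in recovered, 1296 CPM in S961 and 680 CPM in control, with none of the 8 at 0. The higher S961 sum follows Ttr, at 385, 874 and 265 CPM. Gcg was at 201, 366 and 348 CPM, close between S961 and control, and Slc7a2 at 56.4, 35.9 and 51.6 CPM, lowest in S961. The sum is therefore a poor gauge of alpha-cell RNA. The part of alpha-cell RNA in the results for beta-like cells was not tested.

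Each factor had its own pattern across the 4 cell types, and the class with the highest level was the same in all 3 libraries for 6 of the 9. Nkx6-1 and Nkx2-2 were highest in beta-like cells, Neurod1 in alpha-like cells, and Isl1, Rfx6 and Hhex in delta-like cells. For some of these the highest class was not set apart from the next by its interval. The 2 intervals overlapped for Nkx2-2 in control, and for Neurod1 and Rfx6 in recovered and control. No factor was highest in Ppy-like cells in all 3 libraries. Pdx1, Pax6 and Foxa2 had different leading classes in different libraries. Levels are summed UMIs of a class scaled to its total and are compared for the same gene only.

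**Figure D1:**
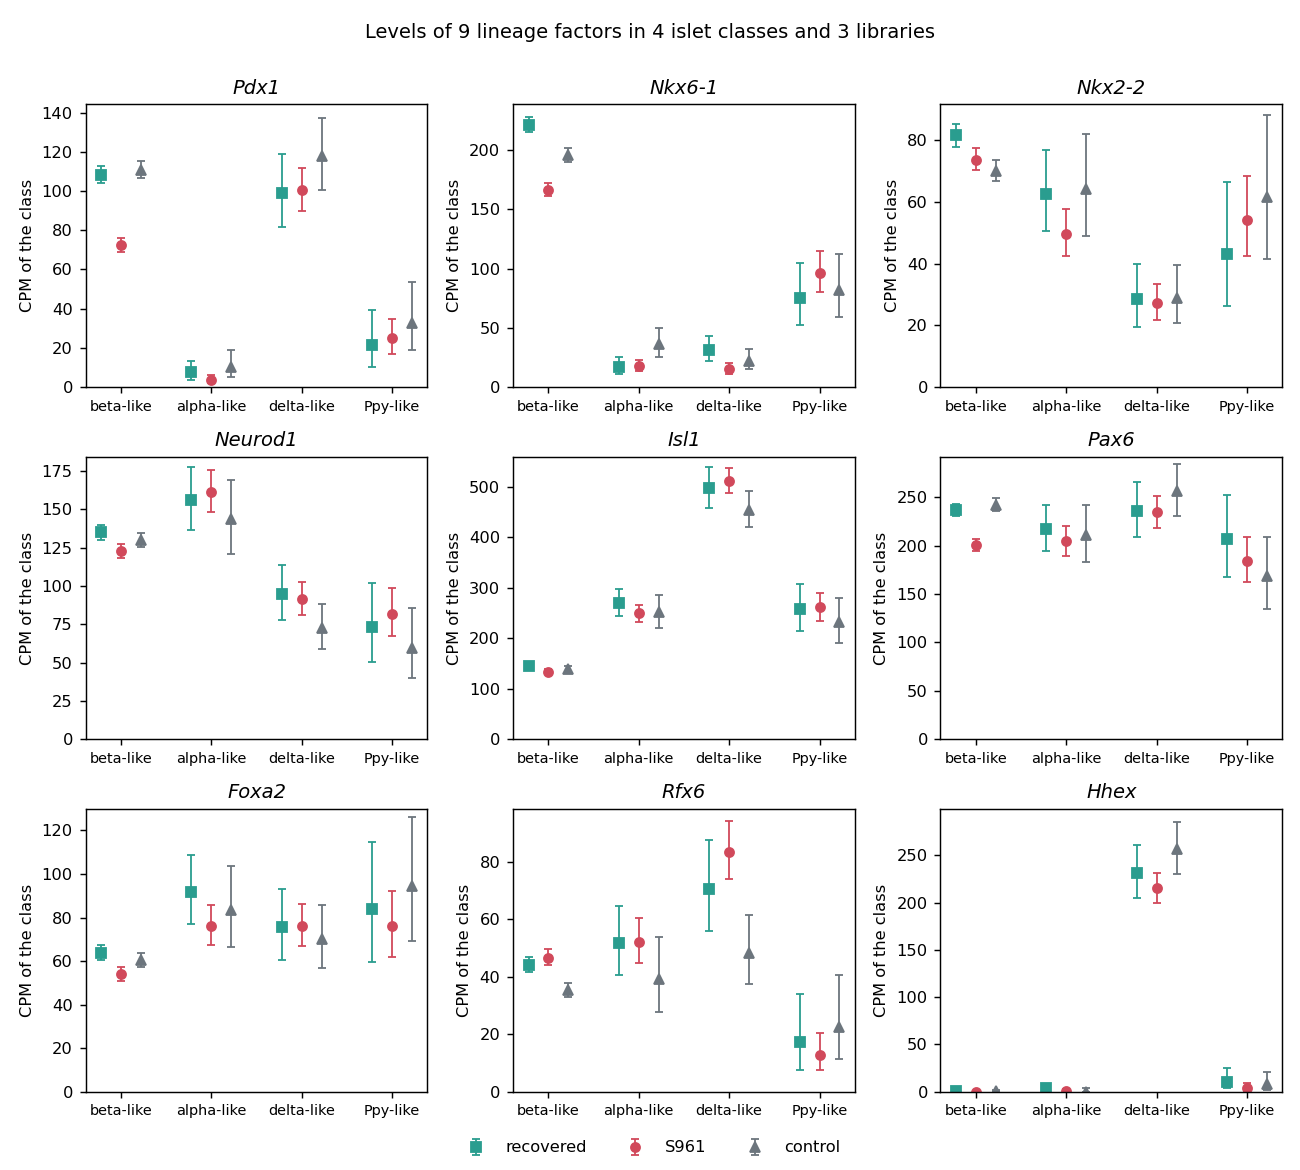
Levels of the 9 factors in CPM of the class (vertical axes, each starting at 0) in beta-like, alpha-like, delta-like and Ppy-like cells of the recovered (squares), S961 (circles) and control (triangles) libraries, with exact Poisson 95% intervals for counting error. Hhex stands high in delta-like cells alone among the 4 classes, Pdx1 in beta-like and delta-like cells, and Pax6 lies between 169 and 256 CPM in every class and library.

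Pdx1 separated beta-like and delta-like cells from the rest. In beta-like cells it was at 108 CPM (95% interval 104 to 113) in recovered, 72.5 CPM (69.1 to 76.1) in S961 and 111 CPM (107 to 115) in control. In delta-like cells it was at 98.9 CPM (81.7 to 119) in recovered, 100.4 CPM (89.8 to 112) in S961 and 118 CPM (101 to 137) in control. Thus the intervals of beta-like and delta-like cells overlapped in recovered and control, while in S961 the delta-like level was 1.38-fold the beta-like level, a log2 ratio of 0.47 (0.29 to 0.64). Ppy-like cells held 21.5, 24.8 and 32.9 CPM and alpha-like cells 7.49, 3.75 and 10.3 CPM in recovered, S961 and control. The alpha-like values rest on 11, 13 and 10 UMIs, and the insulin transcripts in those cells, taken as a gauge of beta-cell RNA, would account for 64.8%, 27.7% and 84.7% of them.

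Nkx6-1 was at 222 CPM in recovered, 167 CPM in S961 and 196 CPM in control beta-like cells. Ppy-like cells came next, at 75.2 CPM (52.4 to 105) in recovered, 96.3 CPM (80.4 to 115) in S961 and 82.2 CPM (58.8 to 112) in control. Beta-cell RNA gauged by insulin would account for 9.76%, 1.69% and 17.5% of the Nkx6-1 UMIs in these Ppy-like cells. Delta-like cells held 31.0, 15.3 and 22.4 CPM and alpha-like cells 17.0, 18.2 and 36.1 CPM. The log2 ratio of alpha-like over delta-like cells was -0.86 (-1.66 to -0.09) in recovered, with intervals that included no change in S961 and control. For all thinned values, cells with at least 2000 UMIs were thinned to 2000 UMIs and shallower cells were left out. That left out 2, 5 and 9 Ppy-like, 155, 95 and 169 beta-like and 9, 17 and 28 endothelial-like cells. Nkx6-1 was then detected in 16.1%, 17.5% and 12.8% of Ppy-like cells and in 34.9%, 25.02% and 31.6% of beta-like cells. In endothelial-like cells the shares were 1.39%, 0.508% and 3.17%.

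Isl1, a LIM-homeodomain factor shared by several endocrine types, was highest in delta-like and lowest in beta-like cells. It was at 497 CPM in recovered, 513 CPM in S961 and 455 CPM in control delta-like cells, and at 144.5, 134.5 and 139.5 CPM in beta-like cells. The delta-like level was therefore 3.44-fold, 3.81-fold and 3.26-fold the beta-like level. Alpha-like cells, at 270.1, 249.6 and 252 CPM, and Ppy-like cells, at 258, 262 and 232 CPM, lay between them with overlapping intervals. Nkx2-2, a homeodomain factor with repressor and activator roles, ran the other way, with 81.5, 73.6 and 70.1 CPM in beta-like cells and 28.4, 27.2 and 28.9 CPM in delta-like cells. Alpha-like cells held Nkx2-2 at 62.6, 49.6 and 64.0 CPM, and in control their interval overlapped that of beta-like cells. Neurod1, a basic helix-loop-helix factor that drives insulin transcription, was at 156, 162 and 143 CPM in alpha-like cells, and at 135, 123 and 129.8 CPM in beta-like cells. The alpha-like and beta-like intervals of Neurod1 were apart in the S961 library.

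Pax6 and Foxa2 varied least. Pax6, a paired-box factor that holds beta-cell identity and is needed for glucagon cells, had a highest class at 1.15-fold its lowest class in recovered, 1.27-fold in S961 and 1.52-fold in control. For Foxa2 the same ratio was 1.44-fold, 1.41-fold and 1.56-fold, with beta-like cells the lowest class in each library at 63.9, 54.0 and 60.4 CPM. In recovered and control the beta-like interval overlapped that of the next class, delta-like cells. Rfx6 was at 70.5, 83.6 and 48.5 CPM in delta-like cells, at 51.7, 52.2 and 39.2 CPM in alpha-like cells and at 44.2, 46.7 and 35.4 CPM in beta-like cells. In Ppy-like cells Rfx6 had 8, 17 and 11 UMIs, or 17.2, 12.8 and 22.6 CPM. That was 0.39-fold, 0.27-fold and 0.64-fold the beta-like level, with an interval that included no change in control (log2 -1.65 to 0.20).

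Hhex was the most restricted. It was at 231 CPM in recovered, 215 CPM in S961 and 257 CPM in control delta-like cells, against 0.661, 0.175 and 0.834 CPM in beta-like cells, which held 15, 4 and 19 UMIs in all. Alpha-like cells held 5, 3 and 0 UMIs, and Ppy-like cells 5, 5 and 4. Thinned to 2000 UMIs, 36.2%, 33.4% and 39.6% of delta-like cells had a Hhex UMI. In thinned beta-like cells the counts were 2 of 2033, 0 of 1515 and 5 of 2801, where 0 of 1515 (3 counts of the total) allows a share of up to 0.198% at this thinned depth. With all UMIs kept, 10 of 2188, 4 of 1610 and 19 of 2970 beta-like cells had a Hhex UMI. Outside the hormone cells Hhex was also present in ductal-like cells, at 119.9, 119.7 and 94.6 CPM, and in endothelial-like cells, at 56.6, 75.1 and 33.5 CPM.

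Per cell, the factors were sparse. At 2000 UMIs, a beta-like cell showed on average 1.75 of the 9 factors in recovered, 1.35 in S961 and 1.66 in control, and 15.1%, 25.7% and 16.9% of beta-like cells showed none. Delta-like cells showed 2.09, 2.03 and 2.02 factors on average. Alpha-like cells showed 1.45, 1.29 and 1.36, and Ppy-like cells 1.27, 1.37 and 1.33. In endothelial-like cells, which should lack most of them, the averages were 0.236, 0.213 and 0.365. The S961 beta-like average was the lowest of the 3 libraries, while the delta-like averages lay close together. A shallow beta-like cluster, led by Serpina7, Ssr4 and Nucb2, held 29.1% of S961 beta-like cells, against 2.01% of recovered and 2.02% of control. Without it the beta-like averages were 1.75, 1.59 and 1.66, and 14.96%, 16.5% and 16.7% of cells showed none, an alternative added after that make-up had been seen.

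In beta-like cells, S961 against control asks what blocking the insulin receptor is linked to. Pdx1 was lower and Rfx6 higher in the S961 library. Pdx1 stood at 72.5 CPM in S961 and 111 CPM in control, 34.6% lower, a log2 ratio of -0.61 (-0.70 to -0.52). Rfx6 stood at 46.7 CPM in S961 and 35.4 CPM in control, 1.32-fold, a log2 ratio of 0.40 (0.27 to 0.53), which was 0.23 and short of the limit when each cell counted equally. A gene counted as higher or lower when it had at least 50 UMIs over both libraries, was at least 25% higher or 20% lower in level, and had an interval that excluded no change. By that rule 1 of 8 measured factors was higher and 1 was lower, while 11.3% of all 11655 measured genes were higher and 10.6% lower. The factors' shares, 12.5% each way, lie near this background. Hhex was not measured in beta-like cells.

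The other 6 factors did not pass this limit. Pax6 was at 200.5 CPM in S961 and 242 CPM in control, a log2 ratio of -0.27 (-0.33 to -0.22), and Nkx6-1 at 167 CPM in S961 and 196 CPM in control, a log2 ratio of -0.23 (-0.30 to -0.17). Foxa2 had a log2 ratio of -0.16, Neurod1 of -0.08, Isl1 of -0.05 and Nkx2-2 of 0.07, and the intervals of Isl1 and Nkx2-2 included no change. The median log2 ratio of the 8 factors was -0.12, beside -0.02 over all measured genes.

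**Figure D2:**
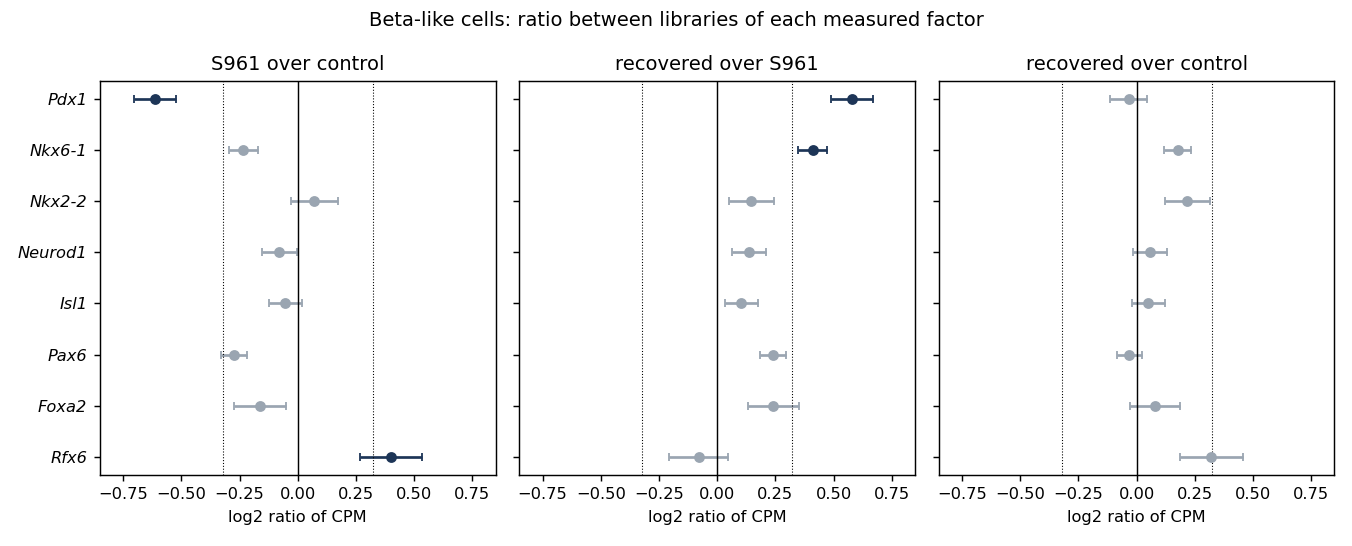
Log2 ratio of CPM (horizontal axes) of the 8 measured factors in beta-like cells for S961 over control, recovered over S961 and recovered over control, with exact conditional binomial 95% intervals; dotted lines mark 25% higher and 20% lower, and dark points are those counted as higher or lower. Pdx1 lies at -0.61 in S961 over control, 0.58 in recovered over S961 and -0.03 in recovered over control, and Rfx6 at 0.40, -0.08 and 0.32.

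The Pdx1 difference was also seen in the share of cells. At 2000 UMIs per cell, 18.1% (16.45 to 19.9) of recovered, 12.1% (10.48 to 13.8) of S961 and 18.7% (17.3 to 20.2) of control beta-like cells had a Pdx1 UMI, against 0%, 0% and 3.17% of endothelial-like cells. With all UMIs of each cell they were 58.4%, 50.7% and 49.8%, where the median beta-like cell held 10109, 13438.5 and 7459 UMIs, so the unthinned order follows depth as well as level. For Rfx6 the thinned shares were 9.30%, 8.45% and 6.71% and the unthinned shares 34.2%, 40.2% and 23.5%, against thinned shares of 1.39%, 0% and 3.97% of endothelial-like cells, where the median cell held 4306, 6041.5 and 3260.5 UMIs. The thinned S961 and control intervals of Rfx6, 7.10 to 9.96% and 5.81 to 7.70%, overlapped.

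Recovered against S961 asks what followed the removal of the pumps, and it shares the S961 library with the comparison above. In beta-like cells Pdx1 was higher in recovered, at 108 CPM against 72.5 CPM in S961, a log2 ratio of 0.58 (0.49 to 0.67). Nkx6-1 was also higher, at 222 CPM in recovered against 167 CPM in S961, a log2 ratio of 0.41 (0.35 to 0.47). It fell short of the 25% limit with a filter of 1000 genes and 10% mitochondrial UMIs (0.32) and in cells with 4 to 7% mitochondrial UMIs (0.24). These were 2 of 8 measured factors, with none lower, where 12.3% of 11711 measured genes were higher and 6.76% lower. Foxa2 and Pax6 had log2 ratios of 0.24 each, Nkx2-2 of 0.15, Neurod1 of 0.14 and Isl1 of 0.10, all with intervals above 0 and short of the 25% limit. Rfx6 was at 44.2 CPM in recovered and 46.7 CPM in S961, a log2 ratio of -0.08 (-0.21 to 0.05). The sign of that Rfx6 ratio turned when each cell counted equally (mean of each cell's CPM, 0.39).

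Recovered against control shares a library with each of the comparisons above, and gave no factor past the limit in beta-like cells, 0 of 8 measured, where 8.10% of 11611 measured genes were higher and 2.65% lower. Pdx1 was at 108 CPM in recovered and 111 CPM in control, a log2 ratio of -0.03 (-0.11 to 0.05). Rfx6 lay just short of it, at 44.2 CPM in recovered and 35.4 CPM in control, a log2 ratio of 0.32 (0.19 to 0.46). Nkx2-2 had a log2 ratio of 0.22 (0.12 to 0.32) and Nkx6-1 of 0.18 (0.12 to 0.24). The other 4 factors had intervals that included no change.

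Beta-like cells fell into 4 clusters, and the Pdx1 difference had the same sign in each. The clusters were led by Mlxipl, Insrr and Slc2a2, by Pdyn, Serpina7 and Ttyh1, by the stress genes Hspa1b, Mt2 and Hspa1a, and by Serpina7, Ssr4 and Nucb2. The last of these was shallow, with median depths of 3177, 3198 and 2629 UMIs, and held 44 recovered, 468 S961 and 60 control cells. Pdx1 for S961 over control had log2 ratios of -0.57 (-0.70 to -0.44), -0.65 (-0.80 to -0.50), -0.47 (-0.77 to -0.17) and -1.26 (-1.86 to -0.62) in the 4 clusters in that order. Without the shallow cluster, an alternative added after its make-up had been seen, the ratio over all beta-like cells was -0.55 (-0.64 to -0.46). Rfx6 for S961 over control had log2 ratios of 0.45 (0.26 to 0.64), 0.55 (0.32 to 0.79), 0.20 (-0.19 to 0.58) and 0.07 (-1.05 to 1.44), so its interval excluded no change in the Mlxipl-led and Pdyn-led clusters.

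**Figure D3:**
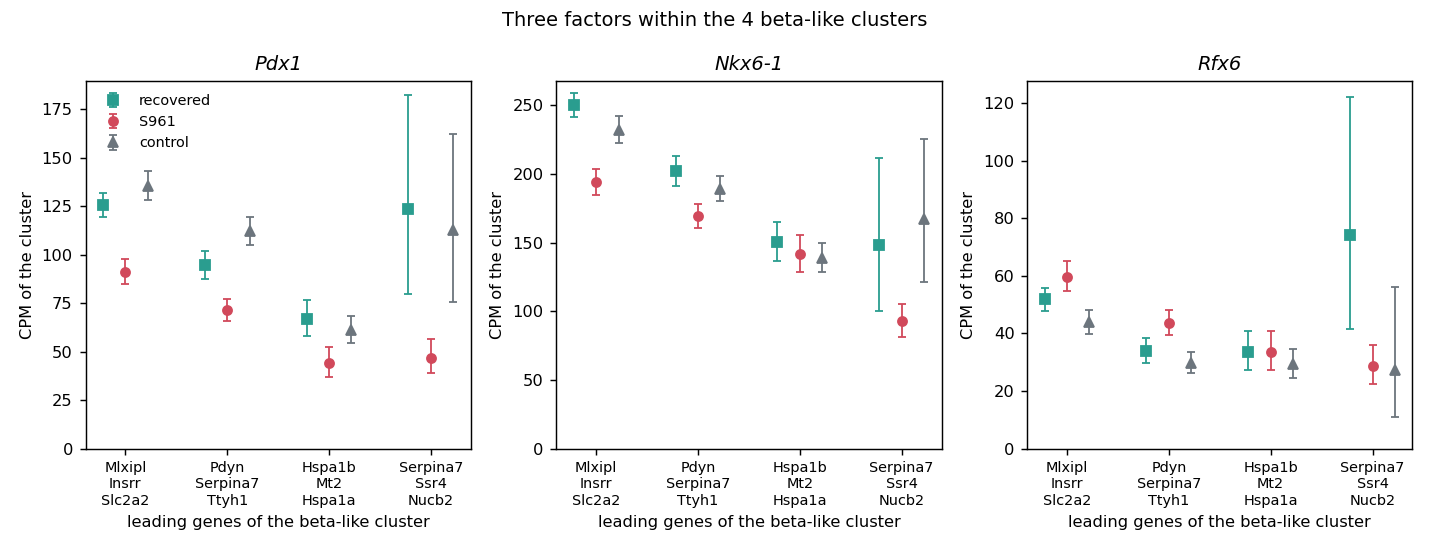
CPM of Pdx1, Nkx6-1 and Rfx6 (vertical axes, each starting at 0) in the 4 beta-like clusters, named by their leading genes, for the recovered (squares), S961 (circles) and control (triangles) libraries with exact Poisson 95% intervals. The S961 point of Pdx1 is the lowest of the 3 libraries in each cluster, at 91.0, 71.5, 44.2 and 47.0 CPM.

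The level of Pdx1 also differed between clusters within a library. In the Mlxipl-led cluster Pdx1 was at 125 CPM in recovered, 91.0 CPM in S961 and 135 CPM in control, and in the stress-led cluster at 66.8, 44.2 and 61.1 CPM. Nkx6-1 was at 250.1, 194 and 232 CPM in the Mlxipl-led cluster and at 150.3, 141.5 and 139 CPM in the stress-led cluster, and for recovered over S961 it had log2 ratios of 0.37 (0.28 to 0.45) in the Mlxipl-led, 0.26 (0.15 to 0.36) in the Pdyn-led and 0.09 (-0.11 to 0.28) in the stress-led cluster. Rfx6 in recovered over S961 was at -0.20 (-0.37 to -0.04) in the Mlxipl-led and -0.37 (-0.61 to -0.13) in the Pdyn-led cluster, and at 1.38 (0.46 to 2.19), on 15 and 70 UMIs, in the shallow one. Pdx1 for recovered over control, at -0.03 over the whole class, had log2 ratios of -0.11 (-0.22 to -0.0032) in the Mlxipl-led and -0.25 (-0.39 to -0.10) in the Pdyn-led cluster, both short of the 20% limit, and intervals that included no change in the other 2 clusters. The Mlxipl-led cluster, where Pdx1 was highest, held 60.4% of recovered, 35.0% of S961 and 44.75% of control beta-like cells. In the stress-led cluster Rfx6 for recovered over S961 was at -0.0003 (-0.41 to 0.41). The whole-class Rfx6 value of -0.08 covers clusters whose shares of beta-like cells differed between these libraries. The part of those shares in it was not tested.

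Alpha-like cells showed 1 difference in S961 against control. Nkx6-1 was at 18.2 CPM in S961 and 36.1 CPM in control, a log2 ratio of -0.99 (-1.61 to -0.35), 1 of 7 measured factors, where 2.50% of 7713 genes were lower and 5.39% higher. In recovered against control it was lower too, at 17.0 CPM in recovered and 36.1 CPM in control, a log2 ratio of -1.09 (-1.89 to -0.30), where 2.60% of 5582 genes were lower and 4.10% higher. Beta-cell RNA moves with the S961 value: the 12 beta markers together, of which 11, 12 and 10 had a UMI, were at 20640 CPM in recovered, 8643 CPM in S961 and 34437 CPM in control alpha-like cells. Adcyap1 was at 0 in recovered, and Nnat and Adcyap1 in control. Gauged by insulin, beta-cell RNA would account for 58.3%, 13.1% and 42.7% of the alpha-like Nkx6-1 UMIs in recovered, S961 and control. In endothelial-like cells the same gauge gave 481%, 117% and 124% of the Nkx6-1 UMIs, which were 1, 5 and 17. The gauge can thus overstate this RNA. With beta-cell RNA taken off, the log2 ratio for S961 over control was -0.49 (-1.11 to 0.15) and no longer counted as lower. That for recovered over control was -1.60 (-2.40 to -0.82). That for recovered over S961 was -1.11 (-1.84 to -0.42), against -0.10 (-0.83 to 0.59) before. This took off 14.6 of 25, 8.28 of 63 and 14.95 of 35 UMIs in recovered, S961 and control. The intervals after it keep the width of the full counts and are too narrow for the fewer UMIs left. Recovered against S961 gave 0 of 7 measured factors, where 3.49% of 8053 genes were higher and 4.78% lower. Pax6, Isl1 and Neurod1, all with over 100 UMIs per library, had log2 ratios between -0.05 and 0.17 in the 3 comparisons.

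In delta-like cells Rfx6 was higher in S961, at 83.6 CPM (73.9 to 94.1) against 48.5 CPM (37.6 to 61.5) in control, 1.72-fold, a log2 ratio of 0.79 (0.40 to 1.19). Neurod1 was higher as well, at 91.5 CPM in S961 and 72.3 CPM in control, a log2 ratio of 0.34 (0.01 to 0.68). These were 2 of 9 measured factors, where 7.91% of 8228 genes were higher and 2.94% lower. The Neurod1 ratio was 0.03 when the insulin-rich mixed cells were put into the class of their hormone, while that of Rfx6 stayed between 0.64 and 1.03 in all 11 alternatives. In recovered, Rfx6 was at 70.5 CPM, with a log2 ratio to control of 0.54 (0.06 to 1.03), 1 of 9, where 3.79% of 6037 genes were higher and 3.10% lower. At 2000 UMIs per cell, 15.5% (10.48 to 21.8) of recovered, 17.0% (13.2 to 21.5) of S961 and 12.1% (8.61 to 16.3) of control delta-like cells had a Rfx6 UMI, with overlapping intervals, against 1.39%, 0% and 3.97% of endothelial-like cells.

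Nkx6-1 in delta-like cells was higher in recovered than in S961, at 31.0 CPM against 15.3 CPM, a log2 ratio of 1.02 (0.36 to 1.66), 1 of 9, where 1.85% of 8125 genes were higher and 4.50% lower. The insulin transcripts moved with it, at 1.503% of UMIs in recovered, 0.192% in S961 and 2.68% in control delta-like cells. Beta-cell RNA would account for 34.5%, 6.24% and 76.1% of the Nkx6-1 UMIs there, and for 5.29%, 0.414% and 8.19% of those of Pdx1. With it taken off, Nkx6-1 for recovered over S961 had a log2 ratio of 0.56 (-0.10 to 1.21), which no longer counted as higher. That interval keeps the width of the full counts and is too narrow for the fewer UMIs left. After thinning to 2000 UMIs the Nkx6-1 ratio was 0.27, with an interval that included no change. Pdx1 in delta-like cells had a log2 ratio of -0.23 (-0.51 to 0.05) for S961 over control, against -0.61 (-0.70 to -0.52) in beta-like cells. The difference between the classes was not tested. Hhex, the delta factor, was at 215 CPM in S961 and 257 CPM in control, a log2 ratio of -0.26 (-0.44 to -0.07), short of the 20% limit.

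Ppy-like cells gave 0 of 6 measured factors in each comparison. The shares over all genes were 5.78% higher and 1.74% lower of 4138 for S961 over control, 1.71% and 6.38% of 4090 for recovered over S961, and 2.82% and 3.83% of 2091 for recovered over control. Cells of this class numbered 58 to 131 per library. In simulated counts that held counting error only, 43.3% of 1.5-fold changes were recovered for S961 over control in Ppy-like cells, against 89.6% in beta-like cells. Nkx6-1, which was higher in Ppy-like than in alpha-like and delta-like cells in each library, had a log2 ratio of 0.23 (-0.29 to 0.78) for S961 over control.

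The 9 factors were set beside 34 other islet transcription factors, listed with earlier results of these data known. In beta-like cells, 24 of the 34 were measured. For S961 over control, 3 were higher and 2 lower, or 12.5% and 8.33%, beside 11.3% and 10.6% of all measured genes. Mafa, which activates insulin transcription in mature beta cells, was at 123 CPM in S961 and 352 CPM in control, a log2 ratio of -1.51. Nr1d1, a circadian repressor, had a log2 ratio of -0.72. Neurog3, which starts endocrine differentiation, was at 3.38 CPM in S961 and 1.32 CPM in control, a log2 ratio of 1.36. Etv1 was at 0.75 and Myt1 at 0.50. The median log2 ratio of the 24 was 0.03, beside -0.02 over all measured genes.

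**Figure D4:**
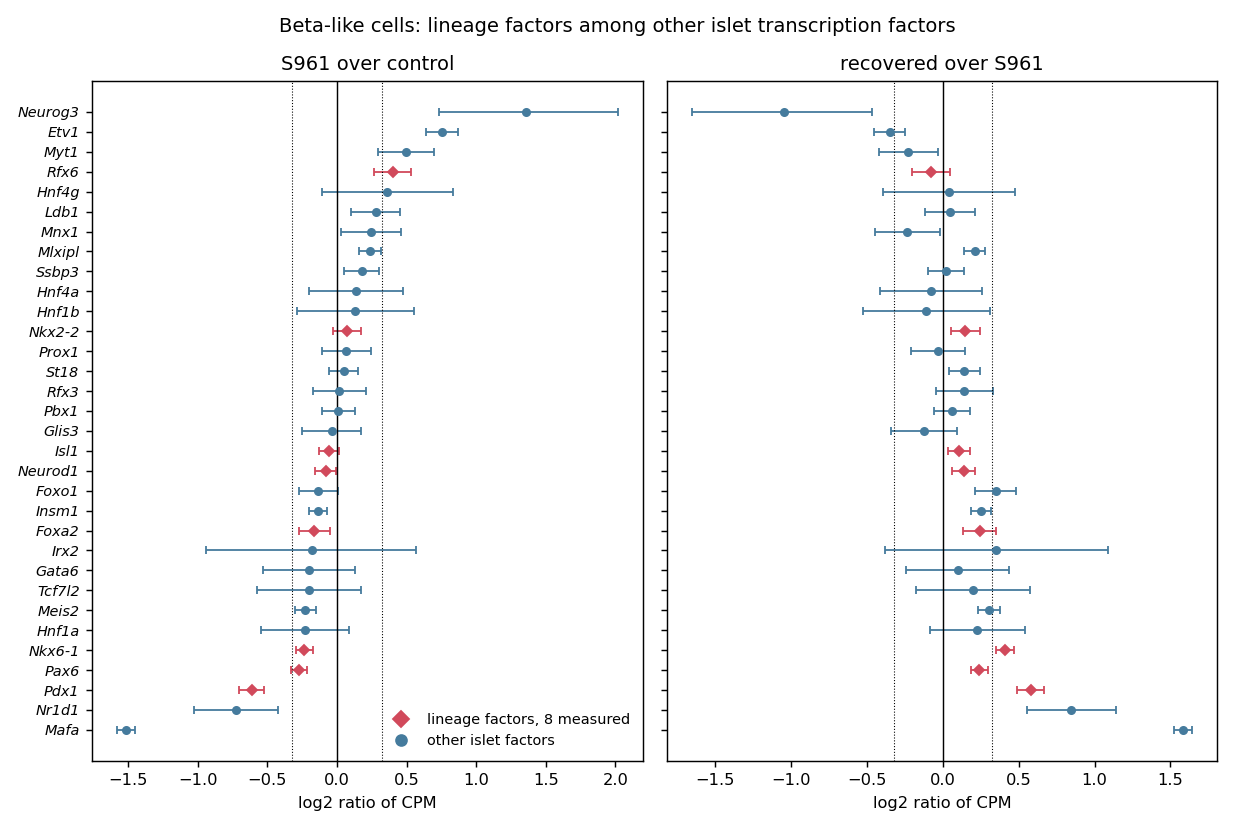
Log2 ratio of CPM (horizontal axes) in beta-like cells of the lineage factors (diamonds) and the 24 other measured islet factors (circles), for S961 over control on the left and recovered over S961 on the right, with exact conditional binomial 95% intervals and dotted lines at 25% higher and 20% lower. Mafa lies at -1.51 and 1.58, beyond Pdx1 at -0.61 and 0.58.

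For recovered over S961, 3 of the 24 were higher and 2 lower, beside 12.3% and 6.76% of all measured genes. Mafa was at 369 CPM in recovered and 123 CPM in S961, a log2 ratio of 1.58, Nr1d1 at 0.85 and Foxo1, a target of insulin signalling, at 0.35. Neurog3 had a log2 ratio of -1.05 and Etv1 of -0.35. For recovered over control, 3 were higher and none lower, beside 8.10% and 2.65% of all measured genes. These were Mlxipl, a glucose-responsive factor also called ChREBP, at 0.45, Etv1 at 0.40 and Ldb1, a cofactor of Isl1, at 0.33. In alpha-like cells 1 of 18 measured was higher in S961 than in control, St18 at 0.74, beside 5.39% of all measured genes. In recovered over S961, 2 of 18 were higher, with Myt1 at 0.75 and Prox1 at 0.32, beside 3.49% of all measured genes, and in recovered over control 0 of 15 were past the limit. In delta-like cells 3 of 20 were higher and 1 lower for S961 over control, beside 7.91% and 2.94% of all measured genes. Here Prox1 at 0.56, Ssbp3, a partner of Ldb1, at 0.47 and St18 at 0.37 were higher, and Mafa, on 8 UMIs in S961 and 60 in control, was lower at -4.15, with 0.192% of UMIs from insulin in S961 and 2.68% in control. For recovered over S961, Myt1 was lower in delta-like cells at -0.79, 1 of 19, beside 4.50% of all measured genes. For recovered over control Etv1 was higher at 0.36 and Mafa lower at -1.26, 1 of 17 each way, beside 3.79% and 3.10%. In Ppy-like cells 0 of 10 measured were past the limit for S961 over control.

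A further list held 30 genes known to be regulated by these factors, and 13 of them are also among the markers used to name the classes. It was likewise chosen with earlier results of these data known, so its shares beside those of all genes are a description and no test. All 30 were measured in beta-like cells. For S961 over control, 10 were lower and 2 higher, or 33.3% and 6.67%, beside 10.6% and 11.3% of all measured genes. Besides Mafa, the lower genes included the glucose transporter Slc2a2, at 40.6 CPM in S961 and 97.0 CPM in control, a log2 ratio of -1.26. Rbp4 had a log2 ratio of -1.11, the granule docking gene Sytl4 of -1.07, the incretin receptor Gipr of -0.97, the zinc transporter Slc30a8 of -0.63 and the oxidoreductase Ero1lb of -0.52. The granule protein Chgb was higher, at 3598 CPM in S961 and 1715 CPM in control, a log2 ratio of 1.07. The median of the 30 was -0.10, beside -0.02 over all measured genes. For recovered over S961, 13 were higher and 3 lower, or 43.3% and 10.0%, beside 12.3% and 6.76% of all measured genes. Slc2a2 was at 117 CPM in recovered and 40.6 CPM in S961, a log2 ratio of 1.53, with Gipr at 1.15, Sytl4 at 1.14 and Slc30a8 at 1.06, and Chgb at -1.02. Gcg at -0.86 and Ppy at -0.86 were lower, and both are hormones of other cell types. For recovered over control, 2 of the 30 were higher, Ucn3 at 0.51 and Slc30a8 at 0.43, and 3 lower, Ppy at -0.80, Gcg at -0.79 and Vgf at -0.33, beside 8.10% and 2.65% of all measured genes.

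Likeness in pattern was described over the 12 points given by 4 classes and 3 libraries, with Pearson's r of log2(CPM + 1) over 7446 genes. The points share libraries, and with 4 classes a high r arises readily. The genes nearest to Pdx1 were Asns (0.979) and Mthfd2 (0.978), and those nearest to Nkx6-1 were Tspan13 (0.928) and Wls (0.891). Nearest to Hhex were Gap43 (0.981) and Ly6h (0.980), to Isl1 Ehf (0.991) and Gm14964 (0.987), and to Rfx6 Osbpl8 (0.955) and Abcc8 (0.921). Nkx2-2 was nearest to Syn2 (0.957) and Ddc (0.946), Neurod1 to Pgap1 (0.963) and Ppm1l (0.952), Pax6 to Idh2 (0.963) and Canx (0.944), and Foxa2 to Frs2 (0.977) and Nudt13 (0.954). Among the factors themselves, Isl1 and Hhex had an r of 0.88, while Nkx2-2 had -0.93 with each of them.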

How the data were processed

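The authors deposited a table of raw UMI counts (31053 genes by 24590 cell barcodes), made with Cell Ranger and mm10, per the submitters' processing notes. Barcode suffixes 1, 2 and 3 give the control, S961 and recovered library, per the labels. The 9 factors and all gene lists were chosen with earlier results of these data known. Cells under 500 genes or over 20% mitochondrial UMIs were left out, and Scrublet doublets (expected rate 0.06) were removed: 24 of 3537 recovered, 77 of 3507 S961 and 3 of 4270 control cells, which is a weak call in control. Counts were scaled to 10000 per cell and clustered with scanpy 1.11.5 and leidenalg 0.10.2 (2000 variable genes without the 9 factors, 30 components, 15 neighbours, resolution 0.5, seed 0). Non-beta endocrine clusters were split again at 0.3, a value chosen after the clusters had been seen, and an insulin-rich mixed sub-cluster and clusters led by processed pseudogenes were kept apart. Clusters were named from marker lists that hold none of the factors.

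UMIs were summed per class and library and scaled to 1000000 UMIs (CPM). Levels carry exact Poisson 95% intervals, ratios exact conditional binomial (Clopper-Pearson) ones and shares exact Clopper-Pearson ones (scipy 1.17.1), for counting error only. In 2 alternative settings, beta-cell RNA taken off and cells weighted equally, the ratio intervals are not exact. There the interval widths of the full summed counts were placed around the new ratio. A count of 0 was set to 3 UMIs in a ratio. Genes named from the longer lists were those at least 25% higher or 20% lower, at most 8 per comparison, ranked by the interval bound nearest to 0. Some genes of the list of other islet transcription factors are not reported here, and the counts of that list leave them out. Beta-cell RNA in other classes was estimated from their Ins1 and Ins2 UMIs and the profile of beta-like cells. This gauge is rough and can overstate that RNA. In recovered, S961 and control endothelial-like cells it gave 481%, 117% and 124% of the Nkx6-1 UMIs. For Isl1 it gave 62.8%, 36.3% and 50.2% there. The ratio and the calling rule were run on simulated counts of 11655 genes for S961 over control in beta-like cells, 200 of them changed. There 89.6% of 1.5-fold changes were recovered, and 1.40% of the genes left unchanged were called. The simulated counts held Poisson counting error only, the error that the intervals assume. They held no variation between libraries or cells, so these shares do not cover it.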

Additional observations from a re-analysis of the deposited data

Results flagged for a closer look

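Several values come from cells outside the 4 classes compared, where a factor was above its control level. Hhex in endothelial-like cells was at 75.1 CPM in S961 and 33.5 CPM in control (117 and 21 UMIs), a log2 ratio of 1.17 (0.49 to 1.91). Isl1 in the insulin-rich cells led by processed pseudogenes was at 134 CPM in recovered and 102 CPM in control, a log2 ratio of 0.40 (0.12 to 0.68). Foxa2 in the insulin-poor cells led by such pseudogenes was at 187 CPM in S961 and 110.1 CPM in control, a log2 ratio of 0.76 (0.11 to 1.47). Other factors were lower in S961 than in control there. Pax6 had log2 ratios of -1.77 (-2.54 to -1.01) in endothelial-like and -2.60 (-3.39 to -1.82) in stellate-like or fibroblast-like cells, and Isl1 of -1.37 (-2.26 to -0.41) in the stellate-like or fibroblast-like ones. Insulin moved with these lower values, at 0.753% of UMIs in S961 and 5.29% in control endothelial-like cells, and at 1.39% in S961 and 10.43% in control stellate-like or fibroblast-like cells, and its part in them was not tested.

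For Neurod1 and Nkx6-1 the same comparison had opposite signs in different cell types, with each interval on its own side of 0. Neurod1 in S961 over control had a log2 ratio of 0.34 in delta-like cells and of -0.080 in beta-like cells. Nkx6-1 in recovered over control had a log2 ratio of -1.09 in alpha-like cells and of 0.18 in beta-like cells. The difference itself was not tested for either factor. Beta-cell RNA gauged by insulin would account for 58.3% of the alpha-like Nkx6-1 UMIs in recovered and 42.7% in control.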

How the results depend on the processing

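No paired analysis was possible because each group is 1 library. In 17 alternative settings, no called value changed sign. Pdx1 in beta-like cells kept its sign and stayed past the 25% or 20% limit in 12 of 12 settings for S961 over control (-0.72 to -0.41) and for recovered over S961 (0.44 to 0.73). Rfx6 in beta-like cells for S961 over control ranged from 0.23, with cells weighted equally (mean CPM over cells), to 0.52. Nkx6-1 in beta-like cells for recovered over S961 ranged from 0.24, in cells with 4 to 7% mitochondrial UMIs, to 0.61.

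Counts of factors moved as follows, and the cause was not tested except where the setting itself gives it. Those with cells weighted equally, or with beta-cell RNA taken off, used interval widths carried over from the full summed counts. In beta-like cells, the 2 factors higher in recovered than in S961 became 1 with a filter of 1000 genes and 10% mitochondrial UMIs, 1 in cells with 4 to 7% mitochondrial UMIs, 7 with cells weighted equally, 4 after thinning to 2000 UMIs and 0 at 1.5-fold. For S961 over control, the 1 higher became 0 with cells weighted equally and 0 at 1.5-fold, and the 1 lower became 3 with cells weighted equally, 3 after thinning and 2 with no minimum of UMIs. The 0 higher in recovered than in control became 1 with cells weighted equally, 1 after thinning and 1 with totals that leave out hormone and mitochondrial genes.

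In alpha-like cells, the 1 factor lower in S961 than in control became 0 after thinning, 0 with beta-cell RNA taken off, 0 with at least 200 UMIs and 2 with no minimum, and the 0 higher became 1 with classes from a hormone gate. In delta-like cells, the 2 higher in S961 than in control became 1 with the strict filter, cells weighted equally, thinning, totals without hormone and mitochondrial genes, centring on the median gene, the hormone gate and 1.5-fold. The 0 lower there became 2 after thinning, 1 with beta-cell RNA taken off and 2 with mixed cells put into the class of their hormone. Of the factors highest in 1 class in all libraries, the 3 of delta-like cells became 5 with the strict filter and 5 in cells with 4 to 7% mitochondrial UMIs, the 2 of beta-like cells 1 with cells weighted equally, the 1 of alpha-like cells 0 after thinning and 0 without hormone and mitochondrial genes, and the 0 of Ppy-like cells 1 without hormone and mitochondrial genes. Nkx6-1 in delta-like cells for S961 over control, which was not counted as changed, was at -0.55 and at 1.30 with beta-cell RNA taken off. Few UMIs limit some values, such as Rfx6 in Ppy-like cells (8 to 17) and Pdx1 in alpha-like cells (10 to 13).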

Other observations

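A cluster that was kept out of the 4 classes held 275 recovered, 210 S961 and 217 control cells. It was led by Msln, Trh and the processed pseudogene Ftl1-ps1, and insulin made up 56.9%, 54.2% and 56.7% of its UMIs. Singled out after its values had been seen, it showed a mix of the factors that differed from that of beta-like cells of the same library. Pdx1 was at 209 CPM in recovered, 204 CPM in S961 and 192 CPM in control, log2 ratios to beta-like cells of 0.95, 1.49 and 0.79. Neurod1 was at 309, 253 and 283 CPM, log2 ratios of 1.20, 1.04 and 1.12. Nkx6-1 was lower, at 82.7, 63.6 and 73.0 CPM, log2 ratios of -1.42, -1.39 and -1.42, and Nkx2-2 was at 18.6, 18.6 and 13.8 CPM, log2 ratios of -2.13, -1.99 and -2.35. Rfx6 had log2 ratios of -0.80, -1.07 and -0.88 and Pax6 of -0.57, -0.45 and -0.53. Pdx1 and Nkx6-1 thus stood on opposite sides of the beta-like level in all 3 libraries. Insulin made up less of the UMIs of beta-like cells, 31.1%, 33.4% and 30.8%. A larger insulin share lowers the CPM of all other genes, which bears most on the smaller negative ratios, such as those of Pax6. Its part in these ratios was not tested. A cluster chosen by its genes gives no test, and what these cells are was not tested.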
